A study of Mus musculus with 12 samples.

Results

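Interscapular brown fat (iBAT) was compared with inguinal white fat (iWAT), the subcutaneous pad of the groin, by RNA sequencing of mouse tissue. The comparison holds 6 of the 12 libraries of the study, 3 from each depot, and they were chosen by their depot label alone. The other 6 come from supraclavicular brown fat (scBAT) and epididymal white fat (eWAT). All 4 groups carry the same labels: C57BL/6 males aged 8 weeks, with no treatment, kept at ambient temperature, and no transgene or agent is named for any of them. No sorting of cells is described, and cells other than adipocytes can be in each sample. Whether a library stands for 1 mouse or for pooled mice is not given, and the p-values therefore measure only the spread between these samples, which may be technical. In bulk tissue, fewer cells of a type and less RNA per cell cannot be told apart.

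Brown fat is built to burn fuel. Its adipocytes are packed with mitochondria, and noradrenaline released from sympathetic nerves drives lipolysis and opens uncoupling protein 1 (Ucp1), which lets protons leak across the inner mitochondrial membrane so that respiration makes heat. White adipocytes store triglyceride in a large single droplet and secrete hormones such as leptin. Inguinal fat is the white depot of the mouse best known for beige adipocytes, which take on brown features in the cold, and a lymph node lies embedded in that pad.

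Levels are given as CPM, read counts divided by the TMM-scaled library size, and are listed for libraries 1, 2 and 3 of a depot in that order. Differences are log2 values of iBAT minus iWAT with their standard error (SE), from the quasi-likelihood test of edgeR, and a gene was called when its Benjamini-Hochberg adjusted p over all 14898 tested genes was under 0.05. Total counts were 17159401 to 17751125 per iBAT library and 21670017 to 25467294 per iWAT library. The iBAT libraries lay 0.374 to 0.492 apart on the log2 scale (root mean square over genes), and the biological coefficient of variation within the depot was 12.1%. The iWAT libraries were far less alike, with a coefficient of 42.9%. Libraries 1 and 3 of iWAT lay 0.467 apart, whereas iWAT 2 lay 0.983 and 1.3 from them. The distance from iBAT was 1.31 to 1.32 for iWAT 2, 1.77 for iWAT 1 and 1.93 to 1.94 for iWAT 3.

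Libraries iWAT 1 and iWAT 3 stood apart by their lymphocyte genes. The 10 B cell markers summed to 1689, 101 and 2311 CPM in iWAT 1 to 3 and to 9.3 to 12.1 CPM in iBAT. The 12 T cell markers summed to 1214, 78.1 and 1864 CPM in iWAT and to 12.7 to 19.4 CPM in iBAT. Of 11 markers of lymph node stroma and high endothelium, 9 were tested, and they summed to 817, 53.8 and 1120 CPM against 3.36 to 4.2 CPM. The chemokine gene Ccl21a and the cytokine gene Tnfsf11 of that list were not among the tested genes. Library iWAT 2 also lay above all iBAT libraries on these lists, at a level well below those of the other iWAT samples. The comparisons were therefore repeated with iWAT 2 alone, and most counts for the gene lists below are given both ways. With iWAT 2 alone the white side has 1 library, and its spread is assumed to be like that of the other depots.

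Markers of skeletal muscle and salivary gland were higher in iBAT. The 18 skeletal muscle markers summed to 613, 884 and 2586 CPM in iBAT 1 to 3 and to 96.8 to 155 CPM in iWAT. Myh4, a fast muscle myosin, stood at 92.5, 151 and 539 CPM in iBAT and at 12.8, 8.36 and 6.19 CPM in iWAT. The salivary protein gene Bpifa2 stood at 162, 369 and 482 CPM in iBAT against 16.3, 7.39 and 5.2 CPM in iWAT. For both tissues iBAT 3 was the highest library of the comparison. Outside it, Bpifa2 stood at 3255, 5227 and 1283 CPM in scBAT and at 47.3, 1224 and 64.3 CPM in eWAT. The source of the muscle and salivary RNA was not tested. All 18 muscle markers were called higher in iBAT with a median log2 difference of 3.63, and 15 of them without iBAT 3. Against iWAT 2 alone 4 were called, although the median was no smaller (4.36). Of 8 salivary genes 5 were tested and 3 were called higher (median 5.13). The count fell to 1 without iBAT 3 and to 0 against iWAT 2 alone, where the median was 5.52.

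**Figure D1:**
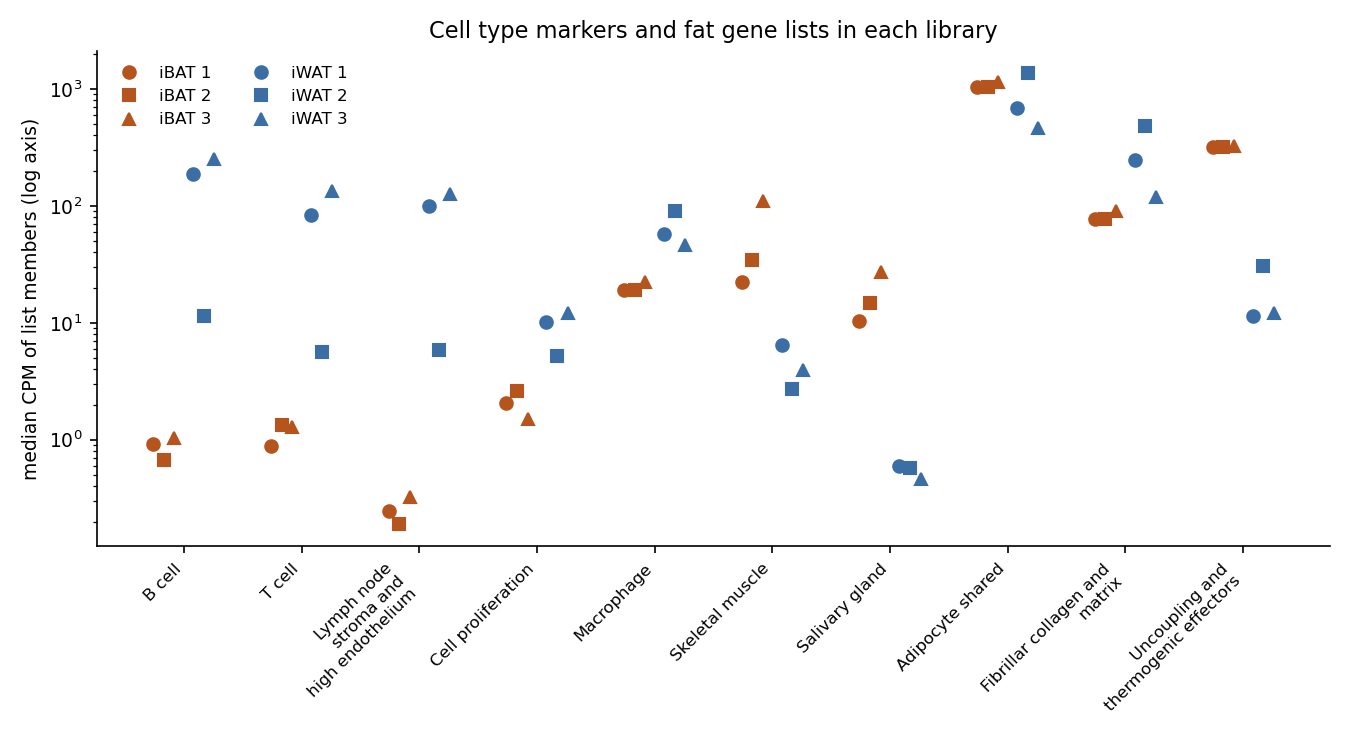
Median CPM of the tested members of 10 gene lists in each library, on a log axis. Brown symbols are iBAT, blue symbols iWAT, and circles, squares and triangles are libraries 1, 2 and 3. The lymphocyte and lymph node lists are high in iWAT 1 and 3, the muscle list is highest in iBAT 3, and the fat and matrix lists are highest within iWAT in library 2.

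Most genes differed between the depots. Of the 14898 tested genes, 9392 were called (63.0%), with 4155 higher in iBAT (27.9%) and 5237 lower (35.2%). At least 2-fold differences made up 2152 of the higher and 3443 of the lower calls. The 3 libraries of iBAT all lay above the 3 of iWAT for 4380 genes (29.4%) and all below for 4695 (31.5%), whether called or not. Over all tested genes the median difference was -0.131 with the TMM scaling used here, -0.101 with RLE size factors and -0.173 with upper quartile scaling, and a difference of that size is no departure from the bulk of genes. Against iWAT 2 alone, 7891 genes were called (53.0%), 3780 higher (25.4%) and 4111 lower (27.6%), with 1469 and 2579 of them at least 2-fold. Of the genes first called higher, 3160 were called higher again, 0 were called lower and 995 were not called. Of the genes first called lower, 3338 were called lower again, 3 were called higher and 1896 were not called.

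Calls in each direction held more genes of an uneven pattern within iWAT and fewer of the opposite pattern. In iWAT 2, 10.7% of genes called lower had over 1.5 times the level of both other iWAT libraries, against 18.5% of all tested genes. Only 1.66% of genes called higher had under 0.5 times that level, against 14.2% of all. Among genes called lower in iBAT, 1662 (31.7%) had under 0.5 times the level of both other iWAT libraries in iWAT 2, against 14.2% of all tested genes, and 937 of them were also called without iWAT 1 and 3. Among genes called higher in iBAT, 1177 (28.3%) had over 1.5 times the level of both others in iWAT 2, against 18.5% of all, and 846 of them were also called without iWAT 1 and 3.

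**Figure D2:**
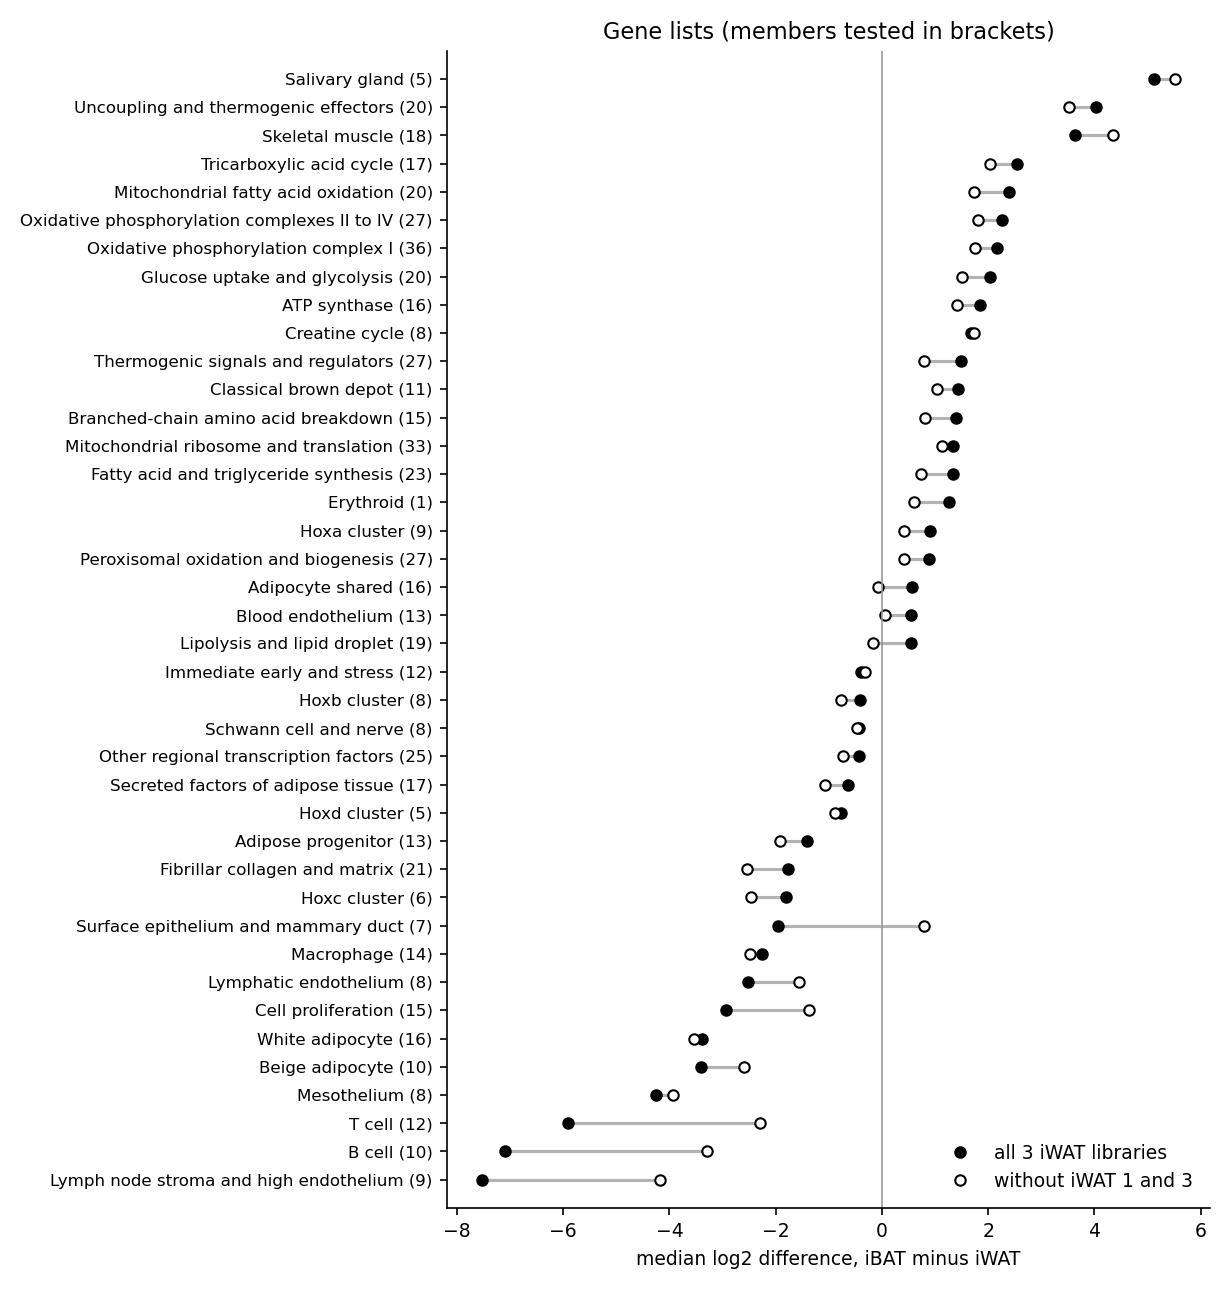
Median log2 difference of iBAT minus iWAT for the tested members of each gene list (their number in brackets). Filled symbols use all 3 iWAT libraries and open symbols use iWAT 2 alone. The thermogenic and mitochondrial lists stay far right of zero in both, the lymphocyte lists move from near -7 and -6 to near -3 and -2, and the shared adipocyte and lipolysis lists move from just right to just left of zero.

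The thermogenic effectors set the depots apart in every library. All 20 members of the list were called higher in iBAT, with a median log2 difference of 4.04, and all 20 were called against iWAT 2 alone (median 3.53). The background of higher calls was 27.9%. The list was chosen with earlier results of these data known and holds genes with the largest rises, such as Kng2 and Lgr6, so its count is a description. Ucp1 (GRCm38 chromosome 8, 83290352 to 83298452) stood at 2334, 2396 and 1793 CPM in iBAT and at 15.7, 32 and 18.7 CPM in iWAT. The iBAT libraries lay far above the iWAT libraries, with the lowest brown value in iBAT 3 and the highest white value in iWAT 2. The log2 difference was 6.62 (SE 0.6, adjusted p = 1.08e-05), and 6.09 against iWAT 2 alone (adjusted p = 0.00301).

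Several genes of the effector list had larger differences than Ucp1 or nearly as large. Kng2, a kininogen gene, stood at 228, 206 and 109 CPM in iBAT against 0.809, 1.5 and 0.56 CPM in iWAT (log2 difference 7.6, adjusted p = 1.95e-06). Lgr6, a receptor of R-spondins, stood at 78.7, 68.2 and 23.8 CPM against 0.176, 0.088 and 0.0329 CPM (log2 difference 9.1, adjusted p = 6.73e-06). Fabp3, the heart-type fatty acid binding protein, stood at 269, 248 and 147 CPM against 1.65, 4.71 and 2.21 CPM (log2 difference 6.3, adjusted p = 9.68e-06). These 3 genes were lowest within iBAT in library 3, the library with the most muscle RNA, and no group overlapped. Ucp1 had its lowest iBAT value in the same library, and its difference without iBAT 3 was 6.74 (adjusted p = 5.26e-05).

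Lipid handling and mitochondrial effectors followed the same order. Cidea, a lipid droplet protein that also marks brown fat, stood at 1878, 1911 and 1856 CPM in iBAT and at 61, 229 and 84.2 CPM in iWAT (log2 difference 3.91, SE 0.61, adjusted p = 0.000305). Here the white libraries spread widely and iWAT 2 was the highest of them. The glycerol kinase gene Gyk, which lets fat cells reuse glycerol, was even within each depot, at 237, 243 and 223 CPM against 12.4, 17.2 and 12.1 CPM (log2 difference 4.07, adjusted p = 7.99e-07). Letmd1, a gene of the inner mitochondrial membrane, stood at 844, 849 and 786 CPM against 57.6, 85.2 and 58.4 CPM (log2 difference 3.62, adjusted p = 6.61e-07). Acot11, a thioesterase of brown fat, Slc27a2, a fatty acid transporter, and Pank1, which starts coenzyme A synthesis, differed by log2 values of 4.96, 5.82 and 4.68. The smallest difference of the list was that of Slc29a1, a nucleoside transporter, at 1.34.

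**Figure D3:**
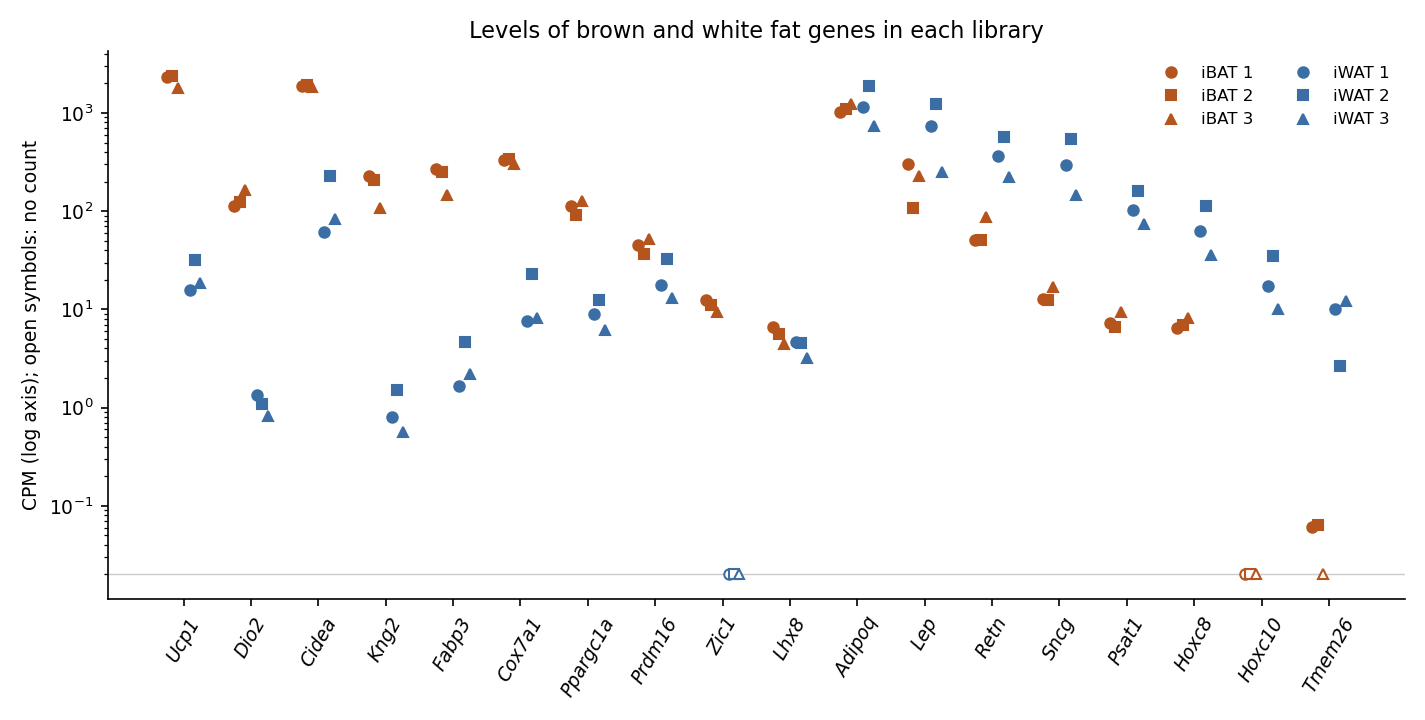
CPM of 18 brown and white fat genes in each iBAT (brown) and iWAT (blue) library, on a log axis, with circles, squares and triangles for libraries 1, 2 and 3 and open symbols where a library had no count. Ucp1 lies between 1793 and 2396 CPM in iBAT and between 15.7 and 32 CPM in iWAT, Lhx8 and Adipoq overlap, and Zic1 and Hoxc10 have counts in 1 depot only.

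Receptors and transcriptional regulators of thermogenesis split into groups. Of 27 members, 19 were called higher in iBAT and 1 lower (median 1.48), and against iWAT 2 alone 15 were called higher and 2 lower (median 0.79). Dio2, the deiodinase that activates thyroid hormone inside the cell, stood at 112, 123 and 165 CPM in iBAT and at 1.34, 1.1 and 0.823 CPM in iWAT (log2 difference 6.94, SE 0.47, adjusted p = 2.15e-06). Ppara, a nuclear receptor for fatty acids, stood at 871, 835 and 850 CPM against 26.6, 72.7 and 21.2 CPM (log2 difference 4.41, adjusted p = 1.6e-05). The coactivator gene Ppargc1a stood at 112, 90.9 and 128 CPM against 9.04, 12.5 and 6.12 CPM (log2 difference 3.58, adjusted p = 4.87e-06). Its relative Ppargc1b differed by 3.72, and the estrogen-related receptors Esrra, Esrrg and Esrrb by 2.35, 3.81 and 2.52. All of these groups were free of overlap, and Esrrb alone among them was not called against iWAT 2 alone (1.94, adjusted p = 0.102).

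Prdm16 and the beta-adrenergic receptors were less clear. Prdm16, a regulator of brown and beige adipocyte identity, stood at 45.1, 36.4 and 52.3 CPM in iBAT and at 17.7, 32.4 and 13.1 CPM in iWAT. It was called with all libraries (log2 difference 1.08, adjusted p = 0.0201) and not against iWAT 2 alone (0.47, adjusted p = 0.367). Ebf2, another selector of brown adipocytes, went from 2.03 (adjusted p = 0.00233) to 1.26 (adjusted p = 0.0614). Adrb3, the beta-3 adrenergic receptor of adipocytes, stood at 258, 251 and 195 CPM in iBAT and at 373, 496 and 160 CPM in iWAT, so that the groups overlapped. Its difference was not called with all libraries (-0.55, adjusted p = 0.187), and it was called lower in iBAT against iWAT 2 alone (-1.08, adjusted p = 0.00565). Adrb1, the beta-1 receptor, was higher in iBAT, at 30.2, 41.8 and 40 CPM against 4.92, 12.2 and 2.8 CPM (log2 difference 2.5, adjusted p = 0.00064). The member called lower with all libraries was Creb1, a cyclic AMP response factor, at 54.4, 57.4 and 55.9 CPM against 119, 60.9 and 146 CPM. It was high in the lymphocyte-rich libraries, and the difference was -0.12 against iWAT 2 alone (adjusted p = 0.306).

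Genes of the respiratory chain were higher in iBAT nearly throughout. All 36 tested complex I genes were called higher, with a median log2 difference of 2.17, and 26 of 27 genes of complexes II to IV (median 2.27). Of 16 ATP synthase genes, 14 were called higher and 2 lower (median 1.84). Against iWAT 2 alone the counts were 36, 26 and 13 higher, with medians of 1.75, 1.8 and 1.41, and again 2 ATP synthase genes lower. Without iBAT 3 they were 36, 26 and 13. The complex I gene Ndufs8 stood at 398, 396 and 354 CPM in iBAT and at 60.7, 83.9 and 58.6 CPM in iWAT (log2 difference 2.5, SE 0.16, adjusted p = 1.71e-06). The groups were far apart and the spread within each was small. Sdhd, an anchor subunit of succinate dehydrogenase, stood at 987, 1083 and 978 CPM against 131, 232 and 126 CPM (log2 difference 2.64, adjusted p = 8.58e-06).

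Exceptions within these lists were few. Cox6a2, a heart and muscle subunit of cytochrome oxidase, was at most 8.91 CPM in any library of the comparison and was not called (1.35, adjusted p = 0.151). Its highest value was in iBAT 3, the library richest in muscle markers. Atp5g1, which encodes a copy of the membrane ring subunit of ATP synthase, was lower in iBAT, at 9.35, 11.1 and 15 CPM against 33.2, 33 and 35.5 CPM (log2 difference -1.52, SE 0.2, adjusted p = 9.44e-05). Atp5g2, another gene for the same subunit, rose by 1.14, and Atp5g3, the third, by 0.49 with all libraries but not against iWAT 2 alone (0.06, adjusted p = 0.627). These genes encode nearly the same mature protein and reads could be split between close copies, so their single values are less certain. Atpif1, the inhibitor of ATP synthase, stood at 14.8, 16.8 and 14.2 CPM against 29.3, 26 and 30.4 CPM (log2 difference -0.91, adjusted p = 0.000133).

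The machinery around the chain moved the same way. All 17 genes of the tricarboxylic acid cycle were called higher (median 2.54), and all 33 of the mitochondrial ribosome (median 1.34), with the same counts against iWAT 2 alone. Suclg1, a subunit of succinyl-CoA ligase, stood at 1308, 1334 and 1148 CPM against 119, 198 and 115 CPM (log2 difference 3.14, adjusted p = 4.33e-06). Mrpl34, a ribosomal protein of the mitochondrion, stood at 172, 177 and 161 CPM against 22.4, 30.7 and 22.2 CPM (log2 difference 2.76, adjusted p = 6.61e-07). Within iWAT the mitochondrial genes were higher in library 2. The median log2 ratio of iWAT 2 to the mean of the other iWAT libraries was 0.8 for complex I and 0.85 for the tricarboxylic acid cycle.

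Since these genes moved together, the 250 bases before their start sites were read from RefSeq (GRCm38.p6), which had such a window for 10941 of the tested genes. The sequences below are printed to show the window of Ucp1 and 2 windows of respiratory chain or ATP synthase genes that hold the estrogen-related receptor element AAGGTCA, printed in capitals on whichever strand it lies. They are the 2 genes with the largest difference among those that hold it and whose window touches no annotated exon. Of them Atp5g3 differed by only 0.49, and by 0.06 against iWAT 2 alone.
Ucp1, chr8:83290098-83290347, plus strand: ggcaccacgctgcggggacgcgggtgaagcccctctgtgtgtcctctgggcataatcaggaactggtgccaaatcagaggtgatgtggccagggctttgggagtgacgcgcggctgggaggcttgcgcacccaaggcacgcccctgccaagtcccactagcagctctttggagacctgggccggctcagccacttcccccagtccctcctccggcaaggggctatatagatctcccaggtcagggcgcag
Ndufb2, chr6:39592315-39592564, plus strand: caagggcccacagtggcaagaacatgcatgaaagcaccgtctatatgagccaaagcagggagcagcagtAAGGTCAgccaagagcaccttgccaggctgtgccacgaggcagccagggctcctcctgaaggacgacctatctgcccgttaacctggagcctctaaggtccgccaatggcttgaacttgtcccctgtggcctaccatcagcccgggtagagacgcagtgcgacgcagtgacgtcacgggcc
Atp5g3, chr2:73911327-73911576, minus strand: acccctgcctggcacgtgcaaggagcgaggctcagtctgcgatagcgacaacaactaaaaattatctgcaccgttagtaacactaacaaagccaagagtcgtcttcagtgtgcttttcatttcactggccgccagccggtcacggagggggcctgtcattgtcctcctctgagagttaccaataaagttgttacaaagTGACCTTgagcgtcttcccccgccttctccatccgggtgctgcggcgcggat
The Ucp1 window holds neither of the motifs searched first, AAGGTCA and the element of nuclear respiratory factor 1 (NRF1). No match says only that these letters are not in this window. Ndufb2, a complex I gene, stood at 199, 205 and 183 CPM in iBAT against 39.5, 61.1 and 31.1 CPM in iWAT (log2 difference 2.16, adjusted p = 1.9e-05).

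The nuclear respiratory factor 1 element was the more frequent of the pair among respiratory genes. Short stretches of 30 bases around it are shown, with the element in capitals. They are from the 3 such genes with the largest difference and from Ndufb4. The limit on annotated exons was not applied to these stretches. That of Ndufs6 lies before a RefSeq start but inside the span of the gene in the other annotation used for positions (73319838 to 73328542). The windows of 2 respiratory chain and ATP synthase genes, Ndufb4 and Atpif1, hold both elements. Atpif1 was lower in iBAT (log2 difference -0.91), and its stretch is not printed.
Sdhd, chr9:50603909-50603938, minus strand: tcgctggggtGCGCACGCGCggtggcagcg
Ndufs6, chr13:73328483-73328512, minus strand: ccgccgactgctgtGCGCCTGCGCcggcac
Ndufa5, chr6:24527697-24527726, minus strand: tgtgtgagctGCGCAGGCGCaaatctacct
Ndufb4, chr16:37654540-37654569, minus strand: gagaagcagtGCGCACGCGCagaatacgcg
Both strands were searched. Of all tested genes with a window, 8.34% held the NRF1 element. It was found in the window of 13 of 65 respiratory chain and ATP synthase genes (20.0%). It was found in 10% of genes called higher in iBAT, in 6.26% of genes called lower and in 0 of 15 thermogenic effectors. AAGGTCA, which also lies inside longer nuclear receptor elements, was found in 5 of the 65 genes (7.69%), against 3.67% of all, and in 1 of 15 effectors. The cyclic AMP response element TGACGTCA was found in 5 of the 65 (7.69%), against 2.81% of all, and in 0 of 15 effectors. The Ndufb2 window printed above also holds TGACGTCA near its end, in small letters. These shares describe letters in short windows and were not tested.

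Pairs of related genes were compared by the change of their ratio, which does not depend on library scaling. Cox7a1, the muscle and brown fat form of a cytochrome oxidase subunit, stood at 330, 339 and 303 CPM in iBAT and at 7.7, 23.1 and 8.1 CPM in iWAT (log2 difference 4.65), while the common form Cox7a2 differed by 2.03. The log2 ratio of Cox7a1 to Cox7a2 was higher in iBAT by 2.76 on average and did not overlap between the depots. For Cox8b over Cox8a, another such pair, the ratio was higher by 1.84. For Cpt1b over Cpt1a, the muscle and liver forms of carnitine palmitoyltransferase, it was higher by 5.39, with Cpt1b at 4.28, 2.74 and 2.45 CPM against 0.105, 0.396 and 0.165 CPM and Cpt1a lower in iBAT (-1.38, SE 0.09, adjusted p = 1.71e-06). Cpt1b was highest in iBAT 1, where muscle markers were lowest.

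Other pairs shifted too. The log2 ratio of Fabp3 to Fabp4 was higher in iBAT by 5.74, that of Ldhb to Ldha, the heart and muscle forms of lactate dehydrogenase, by 2.35, and that of Acsl5 to Acsl4, acyl-CoA synthetases, by 2.01. Slc2a4, the insulin-responsive glucose transporter, rose over the common transporter Slc2a1 by 3.23, and hexokinase Hk2 over Hk1 by 2.92. Against iWAT 2 alone these last ratios were higher by 1.63 and 1.56. Ucp2, a relative of Ucp1 expressed in immune cells, stood at 66.1, 71.7 and 67.9 CPM in iBAT and at 317, 169 and 390 CPM in iWAT (log2 difference -2.09, adjusted p = 5.36e-05). Ucp2, Slc2a1 and Hk1 were all highest in the lymphocyte-rich iWAT libraries, and against iWAT 2 alone Ucp2 remained called (-1.29, adjusted p = 4.3e-06) while Slc2a1 (-0.34, adjusted p = 0.089) and Hk1 (-0.06, adjusted p = 0.782) did not. In 12 of the 13 pairs the ratios did not overlap between the depots, and the exception was Cox6a2 over Cox6a1. The levels of single genes did not overlap for 29.4% of all tested genes with iBAT higher and 31.5% with iBAT lower. The share among ratios of other gene pairs was not computed, and the pairs were chosen with earlier results known. Ckmt2 over Ckb, mitochondrial and brain creatine kinase, was higher by 4.28 on average, but Ckmt2 stood at 4.34, 5.73 and 19.8 CPM in iBAT, in the order of the muscle markers, and the call was lost against iWAT 2 alone (5.21, adjusted p = 0.0869).

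Levels of fuel use genes followed those of the mitochondrial genes. Of 20 genes of mitochondrial fatty acid oxidation, 18 were called higher and 1, Cpt1a, lower (median 2.39), with the same counts against iWAT 2 alone. Acaa2, the thiolase that ends each round of oxidation, stood at 2453, 2372 and 2179 CPM in iBAT against 147, 332 and 150 CPM in iWAT (log2 difference 3.48, adjusted p = 1.23e-05). Of 20 tested genes of glucose uptake and glycolysis, 17 were called higher (median 2.04) and 2 lower, these being Slc2a1 and Hk1, and against iWAT 2 alone 17 were higher and 0 lower (median 1.51). Pgk1, a glycolytic kinase, stood at 573, 608 and 574 CPM against 106, 137 and 117 CPM (log2 difference 2.28, adjusted p = 1.1e-06). All 3 iWAT libraries were alike for this gene. Of 15 genes of branched-chain amino acid breakdown, 14 were called higher (median 1.39), and 11 higher and 1 lower against iWAT 2 alone. Of 27 tested peroxisomal genes, 19 were called higher and 1 lower (median 0.89), and 17 and 3 against iWAT 2 alone (median 0.42). The gene lower with all libraries was Abcd2, a fatty acid transporter, at 124, 107 and 162 CPM against 515, 923 and 277 CPM (log2 difference -2.12, adjusted p = 0.00056).

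Most genes of fat synthesis were also higher in iBAT. Of 23 genes of fatty acid and triglyceride synthesis, 17 were called higher and 3 lower (median 1.34), and 15 and 2 against iWAT 2 alone (median 0.74). Fasn, the fatty acid synthase, stood at 14260, 14496 and 15678 CPM in iBAT and at 3377, 5981 and 2664 CPM in iWAT (log2 difference 1.89, SE 0.33, adjusted p = 0.000612). Elovl6, which lengthens palmitate, stood at 1386, 1751 and 1823 CPM against 168, 377 and 180 CPM (log2 difference 2.78, adjusted p = 0.000103). The lower members were the desaturases Fads1 (-1.3) and Fads2 (-0.6) and the acyltransferase Mogat1 (-1.01), and Fads2 was not called against iWAT 2 alone (-0.08, adjusted p = 0.735). Of 8 creatine cycle genes, 4 were called higher and 2 lower, and 2 and 2 against iWAT 2 alone. The calls that were lost were those of the muscle creatine kinase genes Ckmt2 and Ckm, and Ckm stood at 26.9, 42.7 and 128 CPM in iBAT, in the order of the muscle markers. Slc6a8, the creatine transporter, was higher by 2.31, and the synthesis genes Gatm and Gamt were lower by log2 values of -1.43 and -1.0. For the creatine counts, the shares over all tested genes were 27.9% called higher and 35.2% called lower.

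Over all tested genes, 27.9% were called higher in iBAT and 35.2% lower. Beside that, genes that all adipocytes share did not separate the depots in a stable way. Of 16 such genes, 7 were called higher in iBAT and 1 lower (median 0.56) with all libraries, and 5 higher and 6 lower against iWAT 2 alone (median -0.07). Of 19 genes of lipolysis and the lipid droplet, 8 were higher and 1 lower (median 0.54), and 5 higher and 7 lower against iWAT 2 alone (median -0.16). Adipoq, which encodes adiponectin, stood at 1021, 1095 and 1222 CPM in iBAT and at 1152, 1883 and 738 CPM in iWAT. The brown libraries lay inside the white range, and the difference was -0.18 (adjusted p = 0.596) with all libraries and -0.75 (adjusted p = 0.000271) against iWAT 2 alone. Summed over the 16 shared genes, iWAT libraries held 16087, 27313 and 10561 CPM in order, while their B cell sums ran the other way. How far lymphoid RNA lowers the share of fat genes in iWAT 1 and 3 was not tested. Members of these lists that were higher in both analyses included Slc2a4 (2.01 and 1.29), Cebpb, an early adipogenic factor (2.55 and 1.69), and Plin5, the droplet protein that tethers mitochondria, at 306, 291 and 375 CPM against 10.5, 39 and 11.2 CPM (4 and 3.06).

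White fat genes were lower in iBAT. Of 16 tested members of the white adipocyte list, 13 were called lower and 1 higher, with a median log2 difference of -3.38, and -3.27 with low-count genes at their counting bound. The background of lower calls was 35.2%. Against iWAT 2 alone 14 were lower and 0 higher. Sncg, gamma-synuclein, stood at 12.9, 12.5 and 16.8 CPM in iBAT and at 294, 543 and 146 CPM in iWAT (log2 difference -4.54, SE 0.44, adjusted p = 1.63e-05). Psat1, a serine synthesis enzyme, stood at 7.27, 6.69 and 9.43 CPM against 104, 162 and 74.9 CPM (log2 difference -3.86, adjusted p = 7.99e-06). For both genes the depots were far apart and iWAT 2 was the highest library. The member called higher with all libraries was Rb1, the retinoblastoma gene, by 0.49, and it was not called against iWAT 2 alone (0.28, adjusted p = 0.0598).

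Leptin varied more than its neighbours on the list. Lep stood at 303, 109 and 230 CPM in iBAT and at 744, 1241 and 251 CPM in iWAT, so that iWAT 3 lay below iBAT 1 and the groups overlapped. The difference was -1.8 (SE 0.54, adjusted p = 0.0135), and -2.53 against iWAT 2 alone (adjusted p = 0.00657). Among 17 tested secreted factors, 5 were called higher and 6 lower, and 4 and 8 against iWAT 2 alone. These shares lie near those of all tested genes, 27.9% higher and 35.2% lower. Retn, resistin, stood at 50.8, 51.1 and 87.5 CPM against 363, 573 and 224 CPM (log2 difference -2.61, adjusted p = 0.000105), and Igf1 was also lower (-2.13). Nampt, an enzyme of NAD synthesis that is also secreted, was higher, at 762, 740 and 938 CPM against 174, 326 and 149 CPM (log2 difference 1.91, adjusted p = 0.000143). Vegfa, the angiogenic growth factor, was higher by 1.48, and Nrg4 by 1.0 with all libraries but not against iWAT 2 alone (0.23, adjusted p = 0.256).

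The beige and classical brown lists did not behave as blocks. The background for the counts of both lists is that of all tested genes, 27.9% called higher and 35.2% lower. Of 10 tested beige genes, 8 were called lower in iBAT and 1 higher (median -3.41), and 9 and 1 against iWAT 2 alone (median -2.6). Tmem26 had 2 counts in all iBAT libraries and stood at 10, 2.64 and 12.2 CPM in iWAT, a ratio of 209 (95% exact counting interval 57.7 to 1729). Tmem26 was thus higher in the lymphocyte-rich libraries, as were the list members Cd40 and Tnfrsf9, immune receptors, at 35.7, 3.48 and 53.9 CPM and at 11.2, 2.16 and 16.8 CPM in iWAT 1 to 3. Tbx1, a T-box factor, did not follow them, at 2.99, 2.82 and 4.77 CPM in iWAT against 0.0611, 0.127 and 0.323 CPM in iBAT (log2 difference -4.34, adjusted p = 0.001). P2rx5, a purine receptor gene of beige and brown cells, was the member called higher in iBAT, at 180, 161 and 205 CPM against 10.5, 23 and 8.86 CPM (log2 difference 3.7, adjusted p = 7.07e-06).

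Of 11 classical brown genes, 7 were called higher and 1 lower (median 1.43), and 6 and 1 against iWAT 2 alone (median 1.03). Zic1, which encodes a zinc finger protein of the dorsal somites (chromosome 9, 91358058 to 91365810), stood at 12.6, 11 and 9.43 CPM in iBAT and had no count in any iWAT library, which makes it at least 301-fold higher when the 3 iWAT libraries together are set to 3 counts. Zic4, its neighbour gene, was at least 42.3-fold higher in the same way. Myo5b, a vesicle motor, stood at 105, 106 and 93.7 CPM against 4.08, 3.08 and 5 CPM (log2 difference 4.64, adjusted p = 6.1e-07). Lhx8, however, was not called, at 6.66, 5.67 and 4.46 CPM in iBAT and 4.68, 4.53 and 3.19 CPM in iWAT (log2 difference 0.44, SE 0.35, adjusted p = 0.299), and Meox2 differed by 0.02 (SE 0.17). Epsti1 was lower in iBAT, at 3.91, 4.08 and 3.75 CPM against 162, 24 and 293 CPM (log2 difference -5.35), and again its iWAT level was highest in the lymphocyte-rich libraries.

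Hox genes, which record position along the body axis, mostly ordered the depots by their place in the clusters. Of 13 tested genes of paralogue groups 1 to 5, 8 were called higher in iBAT and 1 lower. Of 8 genes of groups 6 to 8, 0 were higher and 4 lower, and of 7 genes of groups 9 and 10, 0 were higher and 7 lower. Against iWAT 2 alone the counts were 5 and 2, 0 and 6, and 0 and 7. These ranges of groups were set after the values were seen, and the counts are a description.

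Most anterior members outside the Hoxd cluster were higher in the interscapular pad. Hoxa5 stood at 41.9, 43.7 and 37.4 CPM in iBAT and at 3.55, 5.59 and 3.03 CPM in iWAT (log2 difference 3.34, SE 0.21, adjusted p = 1.75e-06). Hoxa4 stood at 18.3, 18.4 and 17.7 CPM against 1.16, 2.11 and 0.922 CPM (log2 difference 3.71, adjusted p = 2.95e-06). The libraries of each depot were close together for both genes and the depots were far apart. Hoxa3 was higher by 1.64, Hoxb2 by 1.17 and Hoxc4 by 1.46. Hoxd3, however, was called lower (-0.77, adjusted p = 0.0397). Hoxd4 (-0.53, adjusted p = 0.0644) and Hoxb5 (-0.14, adjusted p = 0.764) were not called. No tested Hoxd gene was called higher. Overlapping antisense transcripts lie in these clusters and the strand setting of the counts is not given, so the assignment of reads to single Hox genes is less certain.

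Posterior members were lower in iBAT, and 4 of the 7 had at most 2 counts there. Hoxc10 (chromosome 15, 102966796 to 102971893) had no count in any iBAT library and stood at 17.5, 35.1 and 10.2 CPM in iWAT, at least 312-fold higher there. Hoxc9 had 1 count in iBAT and 7.84, 15.6 and 4.91 CPM in iWAT, a ratio of 423 (interval 75.7 to 16742). Hoxa10 had 1 count in iBAT and 8.19, 15.5 and 5.17 CPM in iWAT, a ratio of 433 (interval 77.4 to 17111). Intervals and floors cover counting error only. In these 3 genes iWAT 2 was the highest library, unlike the lymphocyte genes. Hoxd10 had 2 counts in iBAT and at most 1.3 CPM in iWAT. The other posterior genes were detected in iBAT. Hoxd9 stood at 2.2, 2.17 and 2.2 CPM in iBAT against 6.68, 4.93 and 6.22 CPM in iWAT (log2 difference -1.44, adjusted p = 0.000268), and Hoxa9 and Hoxb9 differed by -2.23 and -1.32. Hoxc8, of the middle group, stood at 6.54, 6.94 and 8.14 CPM against 62.4, 112 and 35.9 CPM (log2 difference -3.28, SE 0.36, adjusted p = 3.08e-05).

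**Figure D4:**
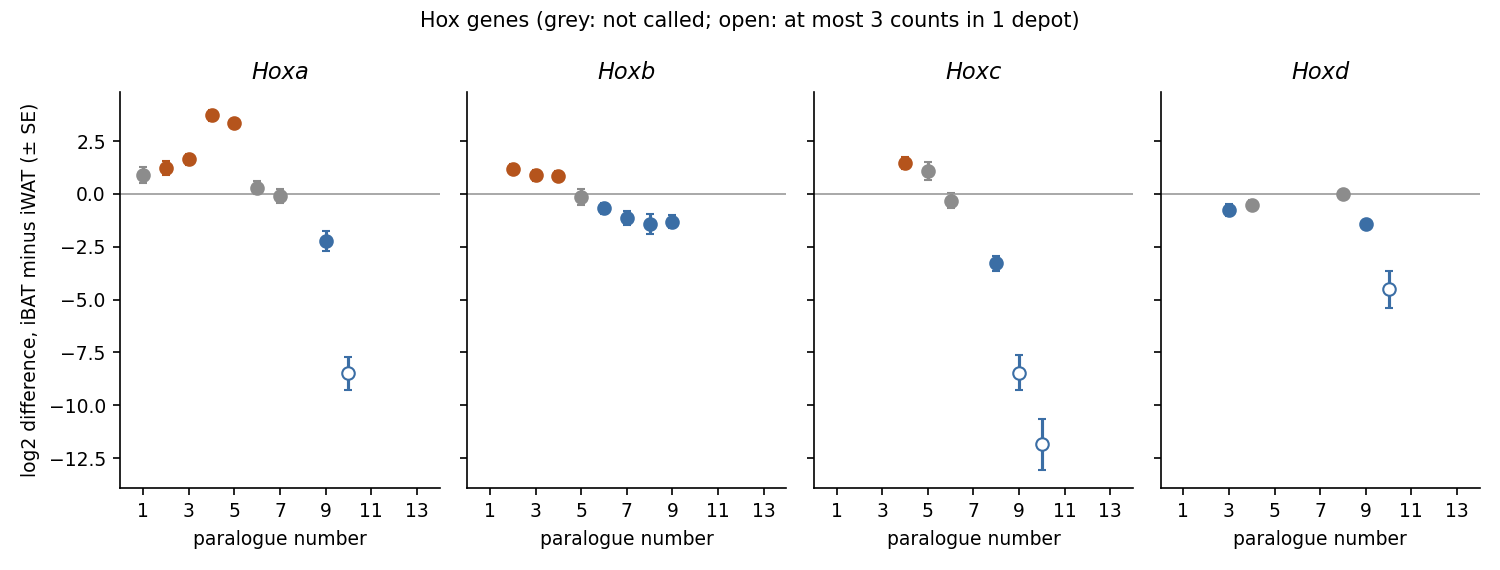
Log2 difference of iBAT minus iWAT (points, with SE bars) for the 28 tested Hox genes by paralogue number in each cluster. Brown points are called higher in iBAT, blue points lower and grey points not called, and open points have at most 3 counts in 1 depot, where the fitted value is no bound. The Hoxa and Hoxc points run from above zero at low numbers to far below zero at 9 and 10.

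Of 25 tested members of the list of other regional factors, 7 were called higher and 11 lower, and 5 and 12 against iWAT 2 alone. The share called higher lies near the 27.9% of all tested genes. Emx2, a homeobox gene of the urogenital region, had 3 counts in iBAT and stood at 4.01, 6.38 and 2.21 CPM in iWAT, a ratio of 63.4 (interval 21.5 to 309). Gata6 stood at 1.59, 1.53 and 1.1 CPM against 11.5, 9.95 and 7.04 CPM (log2 difference -2.75, adjusted p = 5.49e-06). Tbx5, a factor of the forelimb and heart, was higher in iBAT, at 8.8, 9.94 and 7.56 CPM against 0.879, 3.17 and 0.593 CPM (log2 difference 2.52, adjusted p = 0.0041). Tbx15 was lower, at 6.23, 5.48 and 11.8 CPM against 21.5, 39.6 and 14.3 CPM (log2 difference -1.68, adjusted p = 0.0107). Pitx1 had 3 counts in iBAT and 7 in iWAT, too few for a comparison.

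Matrix and progenitor genes were lower in iBAT. Of 21 matrix genes, 17 were called lower and 0 higher (median -1.76), and all 21 were lower against iWAT 2 alone (median -2.54). Col5a2, a fibrillar collagen chain, stood at 41.5, 48.5 and 53.9 CPM in iBAT and at 211, 433 and 107 CPM in iWAT (log2 difference -2.38, SE 0.39, adjusted p = 0.000421). Fn1, fibronectin, stood at 51.5, 49.4 and 67.6 CPM against 215, 490 and 131 CPM (log2 difference -2.31). Here iWAT 2 was the highest and iWAT 3 the lowest white library. The basement membrane collagens Col4a1 and Col4a2 were not called with all libraries, at -0.7 (adjusted p = 0.107) and -0.32 (adjusted p = 0.447).

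Of 13 progenitor genes, 9 were called lower and 2 higher, and 10 and 1 against iWAT 2 alone. Pdgfra, the receptor that marks adipose stromal cells, stood at 25.8, 24.5 and 25.8 CPM against 88.6, 103 and 60.3 CPM (log2 difference -1.72, adjusted p = 1.39e-05). Dpp4 and Cd55, markers of early progenitors that lymphoid cells also express, stood at 77.9, 32.3 and 121 CPM and at 191, 72.6 and 212 CPM in iWAT, highest where lymphocyte genes were high. Both were called against iWAT 2 alone (-3.35 and -2.47). F3, tissue factor, was higher in iBAT, at 175, 200 and 173 CPM against 27.6, 41.6 and 18 CPM (log2 difference 2.65, adjusted p = 1.37e-05). All 14 macrophage genes were called lower in iBAT, with all libraries (median -2.25) and against iWAT 2 alone (median -2.49). Itgam, an integrin of myeloid cells, stood at 4.03, 4.71 and 4.13 CPM against 48.1, 42.7 and 45.3 CPM (log2 difference -3.4, SE 0.14, adjusted p = 4.09e-07). Unlike the lymphocyte genes, this gene was even across the iWAT libraries. Of 13 blood endothelial genes, 5 were higher and 1, Vwf, lower (median 0.55), and the median was 0.06 with iWAT 2 alone. Over all tested genes, the background for the lists of this paragraph, 27.9% were called higher and 35.2% lower.

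The lymphoid lists held large differences. All 10 B cell and 12 T cell genes and all 9 tested lymph node genes were called lower in iBAT, and 10, 11 and 8 of them against iWAT 2 alone. Cd22, a B cell receptor partner, stood at 1.22, 0.637 and 1.16 CPM in iBAT and at 272, 15.6 and 385 CPM in iWAT (log2 difference -7.79, adjusted p = 0.000289), and the difference was -3.93 against iWAT 2 alone (adjusted p = 0.00205). Glycam1, a ligand on high endothelial venules, had 2 counts in iBAT and 121, 7.66 and 159 CPM in iWAT. All 15 proliferation genes were lower in iBAT (median -2.93), and 11 against iWAT 2 alone (median -1.37). Mki67 stood at 4.83, 3.5 and 3.17 CPM against 77.8, 20.5 and 99.5 CPM, highest where lymphocyte genes were high. Whether that gene comes from lymphoid cells was not tested.

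Among the 10 genes with the largest fall, those with at least 10 CPM on average in iWAT, 8 followed the same pattern within iWAT. These were Dsc3, Col6a4, Ngp, Glycam1, Nsg2, Marco, Serpina10 and H2-M2. Dsc3, a desmosomal cadherin, had no count in iBAT and 39.7, 2.2 and 66 CPM in iWAT, at least 619-fold higher. Hoxc10 and Alb were the exceptions. Alb, albumin, had 2 counts in iBAT and 37.9, 72.6 and 18.3 CPM in iWAT, a ratio of 957 (interval 265 to 7906). The 10 genes with the largest rise were mostly genes named above, Zic1, Lgr6, Kng2, Dio2, Ucp1, Fabp3 and Slc27a2 with Rnf182, Car14 and Dcpp1. Rnf182, a ubiquitin ligase of neurons, stood at 13.3, 14.1 and 10.3 CPM against 0.105, 0.176 and 0.263 CPM (log2 difference 6.06, adjusted p = 7.99e-07), and Dcpp1 is a salivary gland gene.

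To ask where this brown and white pair differs from another pair, the difference of iBAT and iWAT was set against that of scBAT and eWAT, which shares no library with it. Of the 14898 tested genes, 287 (1.93%) were called for unequal differences, 144 toward iBAT and 143 toward iWAT, and 3809 had an unadjusted p under 0.05. With iWAT 2 as the only inguinal library 539 were called, 226 of them in both analyses with the same sign. The count was 7843 without iWAT 2, 309 without iWAT 3 and 82 to 137 without any other single library, so it is a loose one. No thermogenic effector was called except Kng2, with a log2 difference of 7.6 here and 4.83 in the other pair (adjusted p of the inequality 0.0428, and 0.337 with iWAT 2 alone). For Ucp1 the inequality was 1.18 (SE 0.67, adjusted p = 0.276).

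Of the 29 unequal genes given here, 10 were positional, but the naming rule held several lists of such genes. Their share among all genes with unequal differences was not computed. Tbx1, Shox2, Tbx15 and Lhx8 differed between iBAT and iWAT by -4.34, -2.77, -1.68 and 0.44, but between scBAT and eWAT by 5.15, 5.52, 4.48 and 6.68. Hoxc4 was higher by 1.46 here and lower in the other pair by a log2 value of -3.27, and Hoxa5 was higher by 3.34 here and by 0.93 there. Hoxc8, Hoxb9 and Hoxb7 were lower in both pairs and by less here, -3.28 against -11.82 for Hoxc8, where scBAT had only 2 counts. The T cell genes Cd4, Cd8a and Tcf7 differed by -6.01, -6.17 and -6.57 here and by -0.22, 0.21 and -0.34 there. Of these Cd8a was no longer called with iWAT 2 alone (adjusted p = 0.0704).

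**Figure D5:**
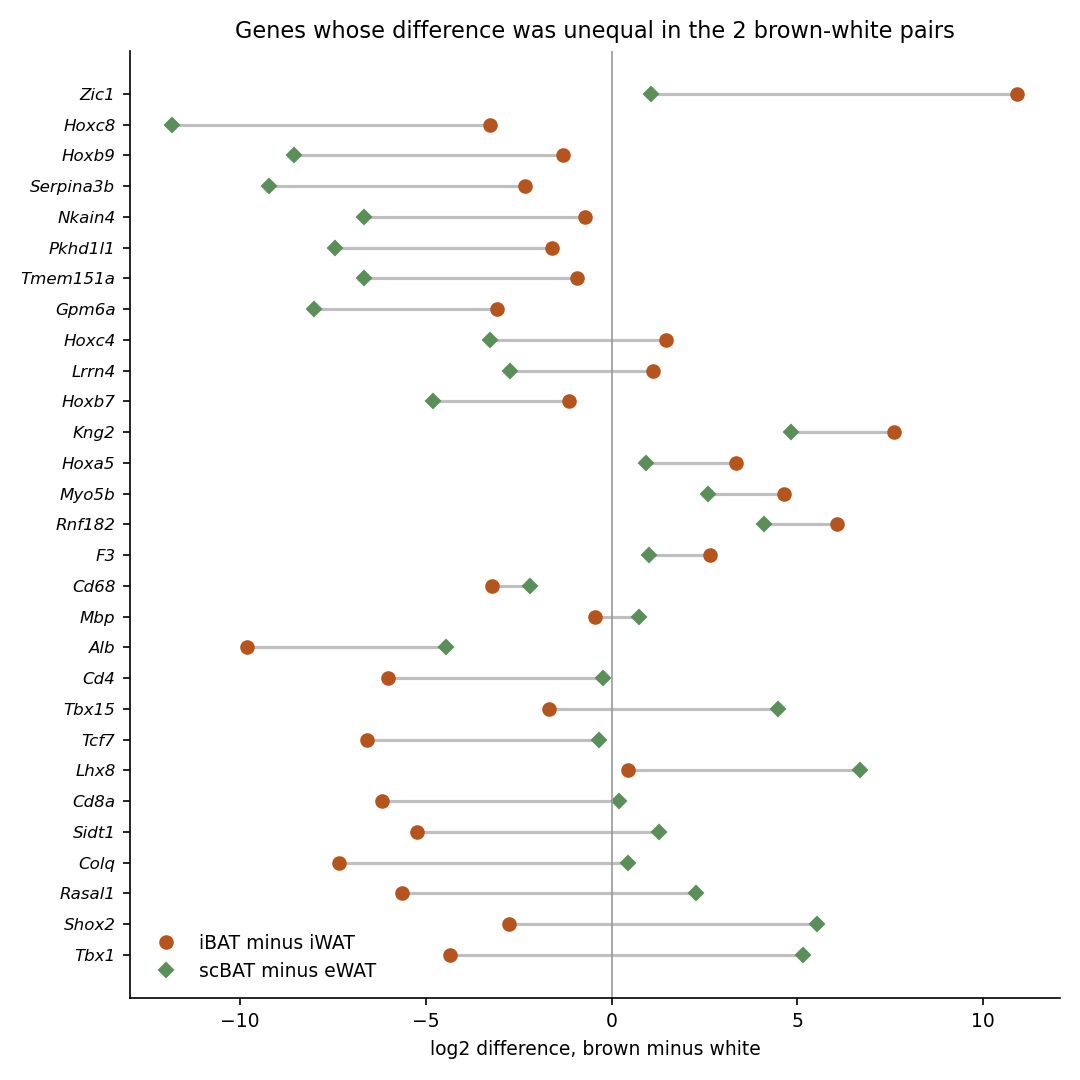
Log2 difference of brown minus white for 29 named genes whose difference was called unequal between the pairs, with circles for iBAT minus iWAT and diamonds for scBAT minus eWAT. Fitted values of genes without counts in a depot, such as Zic1 and Hoxb9, are no bounds. Tbx1, Shox2 and Tbx15 lie on opposite sides of zero in the pairs, and Kng2, Myo5b, Rnf182 and F3 lie on the right in both.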

How the data were processed

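Per the labels' protocols, RNA was extracted with a kit for fatty and fibrous tissue and made into TruSeq RNA libraries. The authors deposited 1 table of raw counts per gene, 23420 genes in 12 libraries, and 4004 genes had no count. Per the submitters' processing notes, the tools were bcl2fastq 1.8.3, STAR 2.4.2a, Picard 1.119, HTSeq 0.6.1p1 and edgeR, and the build was mm10. The gene annotation and the strand setting are not given in the sources used here, so values of overlapping genes, antisense genes and close copies are uncertain.

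The counts were scaled by TMM and tested with edgeR 4.0.16 in R 4.3.3 (quasi-likelihood test, robust, a mean per depot, all 12 libraries sharing the spread, 8 residual degrees of freedom), after the default filter on low counts, which kept 14898 genes. The inequality between the pairs is the iBAT minus iWAT difference less the scBAT minus eWAT difference. Depth of 17159401 counts and more per iBAT and iWAT library sets the counting precision. Exact intervals at 95% and floors of 3 counts over a depot cover counting error only. On counts simulated for iBAT minus iWAT over 14898 genes with the spread of each depot, 96 of 100 genes changed by 4-fold and 4 of 100 changed by 1.5-fold were called, with 30 false calls. Only these genes were changed, and genes varied independently, unlike in the data. The simulation therefore does not give the share of false calls among the reported genes. Alternatives were other scalings, no filter, limma 3.58.1 (voom), DESeq2 1.42.0, a replicate block and each library left out.

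The genes named are the 10 largest differences each way (adjusted p under 0.05, at least 10 CPM in the higher depot, no overlap), the same for falls that held without iWAT 1 and 3, up to 4 members of each list by adjusted p and called members against their list, the isoform pairs, a fixed set and the 6 largest inequalities each way. Members named beyond this rule (Adrb1, Atp5g3, Cd40, Col4a1, Col4a2, Ebf2, Esrrb, Esrrg, Fasn, Meox2, Ndufa5, Ndufb2, Ndufb4, Pank1, Ppara, Slc29a1 and Tnfrsf9) were chosen after their values were seen. Gene models without a name and antigen receptor segments were counted and not named. The genes and lists were chosen with earlier results of these data known. Some genes named by the rule are not reported here.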

Additional observations from a re-analysis of the deposited data

Results flagged for a closer look

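The difference of iBAT and iWAT was unequal to that of scBAT and eWAT, by the edgeR test of the inequality itself, for 29 named genes given here. Values are log2 inequalities, positive where the iBAT minus iWAT value lies above the scBAT minus eWAT value. Those of genes with no count in a depot depend on the prior count and are no bounds.

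Positional genes made up the largest group of these named genes, but the naming rule held several lists of such genes. The inequality was 9.86 for Zic1 (adjusted p = 0.0122), 8.54 for Hoxc8 (adjusted p = 0.00106), 7.24 for Hoxb9, 4.73 for Hoxc4, 3.67 for Hoxb7 and 2.41 for Hoxa5. It was -9.49 for Tbx1 (adjusted p = 0.00231), -8.29 for Shox2, -6.24 for Lhx8 and -6.16 for Tbx15. Zic1 averaged 11 CPM in iBAT and 0.307 CPM in scBAT, whereas Tbx1 averaged 0.171 CPM in iBAT and 14.8 CPM in scBAT.

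Mesothelial genes of the eWAT pad gave positive values, with 4.92 for Gpm6a and 3.85 for Lrrn4. Gpm6a averaged 57.8 CPM in eWAT and 5.33 CPM in iWAT. Pkhd1l1 at 5.85, Nkain4 at 5.94, Tmem151a at 5.72 and Serpina3b at 6.89 were also positive, and Pkhd1l1 averaged 67.3 CPM in eWAT against 2.3 CPM in iWAT. Serpina3b was not called with iWAT 2 as the only inguinal library (6.51, adjusted p = 0.0578).

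Brown fat and stromal genes had smaller values, 2.76 for Kng2, 2.06 for Myo5b, 1.96 for Rnf182 and 1.65 for F3. Kng2 (2.06, adjusted p = 0.337) and Rnf182 (1.99, adjusted p = 0.065) were not called with iWAT 2 alone.

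T cell genes gave -5.79 for Cd4, -6.38 for Cd8a and -6.24 for Tcf7, and the genes Sidt1, Colq and Rasal1 gave -6.51, -7.77 and -7.9. With iWAT 2 alone the values shrank to -2.14, -2.55, -2.43, -2.79, -3.98 and -4.24, and Cd8a (adjusted p = 0.0704), Sidt1 (adjusted p = 0.129) and Rasal1 (adjusted p = 0.167) were not called. The macrophage gene Cd68 gave -1.03 and albumin, Alb, -5.36. Mbp gave -1.18 and was not called with iWAT 2 alone (-0.83, adjusted p = 0.0999).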

How the results depend on the processing

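The counts of genes higher or lower in iBAT, and of those at least 2-fold so, stayed within 1.5 times of the reported counts under each alternative run, between 2949 and 4946 higher and between 3845 and 6048 lower. Of the 212 called named genes, 179 to 211 kept their call with the same sign under each alternative, and none of the 212 changed direction. The count of genes with unequal differences between the pairs was less steady. Against the reported 287, it was 1786 with DESeq2, 539 with iWAT 1 and 3 both left out, and 161 with the replicate block. With single libraries left out it ranged from 82 to 7843. The highest value came without iWAT 2, when the lymphocyte-rich libraries alone stood for the depot, and it was 309 without iWAT 3 and at most 137 without any other library. The cause was not tested. Same-numbered libraries did not deviate together (correlations -0.033, -0.071 and -0.07). With 3 libraries a depot and iWAT 2 unlike the other iWAT libraries, this cannot show whether equal numbers share an animal. The labels do not state it. With the replicate block 4104 genes were higher and 4977 lower. The counts were smaller where the depots did not all share 1 spread. With a weight per depot in voom 2949 were higher and 3845 lower. With the 6 iBAT and iWAT libraries alone 3233 were higher and 3901 lower. The effect of depth was not tested, and 3 libraries a depot cannot separate the pad from what was dissected with it.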
